A study of Mus musculus with 2 samples.

Results

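Genes of polyamine synthesis and breakdown were compared between 2 arrays of Ba/F3 cells carrying BCR-ABL and, by the treatment protocol, treated with imatinib. Of these, 1 array was for cells kept in interleukin-3 (IL-3) and 1 for cells kept without this cytokine. Of the 10 genes listed for the pathway, 6 were measured by a probe set that the platform annotation assigns to that gene alone: Odc1, Srm, Azin1, Oaz2, Smox and Sat1. They are 6 of the 19935 genes measured in this way in the series. Sms and Oaz1 were annotated only on probe sets that name a further gene, so no value is given for either. Amd1 and Paox had no probe set naming them and are not analysed here. For a gene with several probe sets, the one whose mean over both arrays was highest stands for the gene.

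The Ba/F3 line comes from mouse pro-B-like cells and needs IL-3 to survive, and the BCR-ABL fusion kinase replaces that need. Imatinib inhibits the ABL kinase. In both groups the cells expressed BCR-ABL constitutively, grew in medium with 10% serum and received, as the treatment protocol states, 5 µM imatinib for 6 h. Cells without IL-3 were described by the submitters as dying and cells with IL-3 as surviving under the drug, and both arrays are titled as live cells. Which clone or pool of the line was used is not given in the sources used here. The groups follow the sample titles. The labels are not uniform, since the description of the array titled with IL-3 says that it was grown without, and the source name of the other array can be read as without imatinib. Reversed labels would turn the sign of every difference below. If the array titled without IL-3 had received no imatinib, the arrays would differ in both cytokine and drug. The differences below could then not be assigned to IL-3 alone.

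Polyamines are small, positively charged metabolites that bind nucleic acids and are needed for proliferation. Ornithine decarboxylase (Odc1) makes putrescine from ornithine, and spermidine synthase (Srm) and spermine synthase (Sms) extend it with propylamine groups that the S-adenosylmethionine decarboxylase Amd1 makes available. Antizymes (Oaz1, Oaz2) send ornithine decarboxylase to the proteasome, and the antizyme inhibitor Azin1 sequesters antizymes. The acetyltransferase Sat1 marks spermidine and spermine for export or for oxidation by Paox, and Smox oxidises spermine directly. Odc1 is a known MYC target and a growth factor response gene in haematopoietic cells.

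With IL-3, the measured synthesis genes Odc1 and Srm had higher values and the catabolic gene Sat1 had a lower value. Azin1, Oaz2 and Smox lay close to 0. The values are the authors' log values, taken as log2 and read as set against a baseline for each probe set, which no source states. Higher values were taken to mean more RNA, although no source states the direction. Read against a baseline, the values hold no expression level, and only the difference between the arrays (with IL-3 minus without IL-3) is interpreted. Each group had 1 array, so none of the differences has a test, standard error or p-value. The only spread at hand is that between probe sets of the same gene, an SD of 0.14 in the difference over 998 genes, which covers measurement within these arrays and can understate the error. The median difference of all genes was 0.04, with a scaled median absolute deviation, called robust spread here, of 0.17.

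Odc1, the rate-limiting enzyme gene of the pathway, had a value of 1.52 with IL-3 and 0.55 without. The difference of 0.97 is a 1.96-fold higher value with IL-3, and 0.517% of all genes had a greater one. A second probe set assigned to Odc1 alone gave another picture, with 0.95 with IL-3 and 0.78 without. Its difference was 0.17, or 1.12-fold, and 23.2% of all genes had a greater one. The probe set used had the higher mean (1.04 against 0.86) only through the array with IL-3, since without IL-3 it had the lower value. The choice by highest mean thus took the probe set with the larger difference. The mean difference of both probe sets was 0.57, just under 1.5-fold (0.585 on the log2 scale). The gap of 0.80 between these probe sets was large for a gene of this array: among the 998 genes with several probe sets, 8 had a range this wide or wider, Odc1 included, and the median range was 0.13. Both probe sets had a difference above 0, but the size of the Odc1 difference depends on which is read. What separates them was not tested, and the annotation gives both the same gene identifier (18263).

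**Figure D1:**
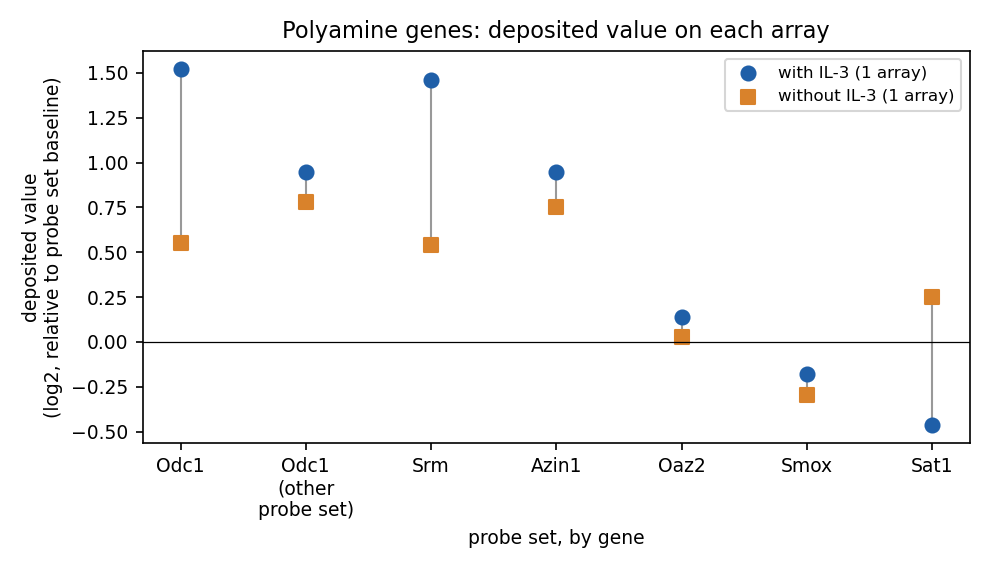
Deposited value of each probe set assigned to a polyamine gene (y axis, log2, read as relative to the probe set's baseline). Circles show the array with IL-3 and squares the array without IL-3, with a line joining the 2 values of a probe set. Odc1 (1.52 against 0.55) and Srm (1.46 against 0.54) are apart with IL-3 on top, Sat1 is apart with IL-3 below, and the other Odc1 probe set lies with Azin1, Oaz2 and Smox at small gaps, of which that of Azin1 turns sign with a loess trend subtracted.

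Srm, which encodes spermidine synthase, had a value of 1.46 with IL-3 and 0.54 without, from 1 probe set. It was 1.90-fold higher with IL-3, a difference of 0.92, and 0.687% of all genes had a greater one. The differences of Odc1 and Srm lay within 0.05 of each other, less than the 0.20 SD that a gap between 2 such differences would have from probe set spread alone. With the loess trend of the difference on the mean value subtracted, Odc1 was at 0.61 and Srm at 0.584, the latter just under 1.5-fold.

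Of the regulators of ornithine decarboxylase, Azin1 had a value of 0.95 with IL-3 and 0.75 without. Its difference of 0.20 (1.14-fold) is close to the probe set SD and turned to -0.06 with the loess trend subtracted. The antizyme gene Oaz2 had 0.14 with IL-3 and 0.03 without, a difference of 0.11 (1.08-fold). Both differences were thus under 1.5-fold, and 19.9% of all genes had a greater difference than Azin1 and 32.7% a greater one than Oaz2. These regulators act on the enzyme's protein, which arrays do not measure.

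Sat1, the spermidine and spermine acetyltransferase gene, had a value of -0.46 with IL-3 and 0.25 without, from 1 probe set. It was 1.64-fold lower with IL-3, a difference of -0.71, and 1.77% of all genes had a smaller difference. Sat1 was the single measured member below 0. Its value changed little with the scaling, from -0.70 after quantile normalization to -0.75 with the loess trend subtracted. The spermine oxidase gene Smox, by contrast, had -0.18 with IL-3 and -0.30 without, a difference of 0.12 (1.08-fold). That difference is smaller than the probe set SD.

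In order of their differences the members ran Odc1, Srm, Azin1, Smox, Oaz2 and Sat1. Odc1 and Srm could not be separated by the probe set spread, and neither could Azin1, Smox and Oaz2 from each other. The gaps of 0.73 between Srm and Azin1 and of 0.82 between Oaz2 and Sat1 exceeded the SD of a gap, 0.20, which is a rule of size and no test. The probe set spread is pooled over genes, however, and covers measurement within these arrays only. The 2 probe sets of Odc1 differed by 0.80, more than the first of these gaps. With the other Odc1 probe set in place of the one used, Odc1 would stand beside Azin1 and Srm alone would be high.

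By fixed folds, 2 of the 6 members exceeded 1.5-fold on the side higher with IL-3, against 3.52% of all genes. At least 1.5-fold lower was 1 of the 6 members, against 2.71% of all genes. No member reached 2-fold (0 higher and 0 lower), which 0.441% of all genes did on the higher side and 0.657% on the lower. The members' median difference was 0.16, and 5 of 6 were above 0, against 59.8% of all genes. The all-gene shares depended on the scaling: after quantile normalization 2.41% were at least 1.5-fold higher and 3.23% lower, and with the loess trend subtracted the shares were 1.69% and 3.81%. The count of higher members was then 1, Odc1, and it was also 1, Srm, when the Odc1 probe sets were averaged. The differences scatter more where the deposited values are high. When genes were split by mean value into 4 equal bins, the top bin held Odc1, Srm and Azin1, its robust spread was 0.42 and 12.8% of its genes were at least 1.5-fold higher. The bin with Sat1, the next to lowest, had a robust spread of 0.10, and 0.662% of its genes were at least 1.5-fold lower. The Sat1 values of -0.46 and 0.25 lay on either side of 0, which put its mean at -0.11. If the values are relative to a baseline, as read here, neither these bins nor the loess trend on the mean follow expression level.

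**Figure D2:**
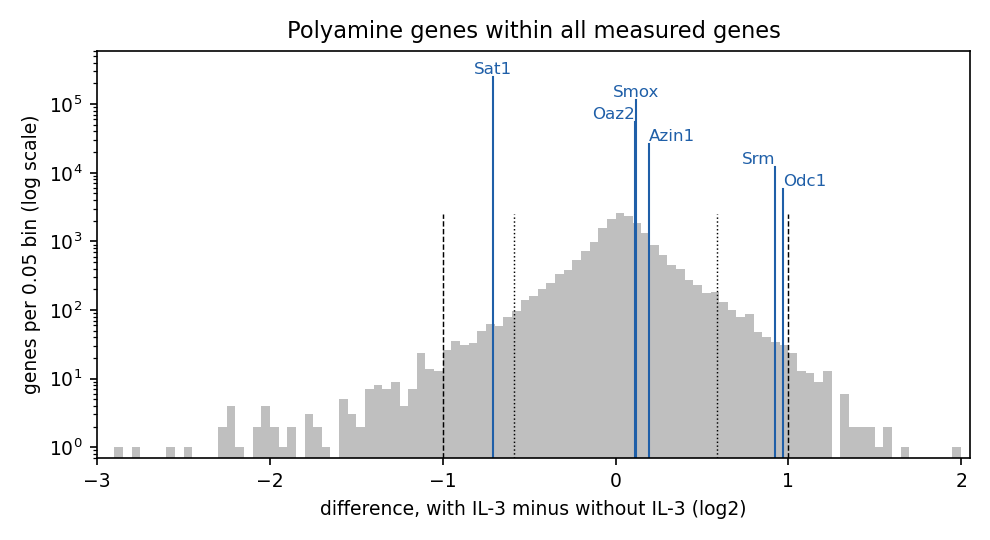
Number of genes (y axis, log scale) by difference with IL-3 minus without IL-3 (x axis, log2) over 19935 genes, with the 6 measured polyamine genes as labelled lines, whose heights carry no value, and 1.5-fold (dotted) and 2-fold (dashed) marked. Odc1 and Srm lie between the 1.5-fold and 2-fold marks on the right and Sat1 between them on the left, while Azin1 (which falls to -0.06 with a loess trend subtracted), Oaz2 and Smox lie in the bulk.

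By the probe sets used, Odc1 and Sat1 were the measured members farthest apart in the 2 directions. With the other Odc1 probe set, Srm would be the highest. The promoter windows of Odc1 and Sat1 are shown from 250 bases before to 50 bases after the gene start (RefSeq, GRCm38.p6). Of the 10 listed genes 8 had such a window; Srm and Azin1 did not. The Odc1 window is chr12:17544623-17544922 on the plus strand and the Sat1 window is chrX:155216400-155216699 on the minus strand, both written 5′ to 3′. Capitals mark the GC box GGGCGG or its reverse complement, searched on both strands.
Odc1: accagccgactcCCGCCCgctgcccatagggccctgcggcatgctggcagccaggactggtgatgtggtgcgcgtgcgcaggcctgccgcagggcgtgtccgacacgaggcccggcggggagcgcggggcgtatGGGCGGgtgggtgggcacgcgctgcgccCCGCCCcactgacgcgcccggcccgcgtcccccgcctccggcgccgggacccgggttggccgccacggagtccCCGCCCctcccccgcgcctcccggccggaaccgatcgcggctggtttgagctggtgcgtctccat
Sat1: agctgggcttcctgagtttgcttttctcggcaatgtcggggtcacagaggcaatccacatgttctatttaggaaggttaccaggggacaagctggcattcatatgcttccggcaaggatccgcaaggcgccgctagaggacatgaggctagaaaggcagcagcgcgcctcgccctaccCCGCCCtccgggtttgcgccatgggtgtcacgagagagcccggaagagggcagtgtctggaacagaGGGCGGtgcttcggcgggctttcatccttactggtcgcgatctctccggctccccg

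The Odc1 window had a GC content of 78.0% and held 4 GC boxes, and the Sat1 window had 60.3% and held 2. Over all 32851 windows of the table the median GC content was 52.7%, and 35.7% held at least 1 GC box. The windows of Oaz2 and Smox, whose differences were near 0, held 4 and 6. The E-box CACGTG, the site of MYC and MAX, was found in 7.15% of all windows and in 0 of those of Odc1, Sat1, Oaz2 and Smox. TATAAA (13.6% of all windows) and the STAT-type motif TTCNNNGAA (8.3%), searched on both strands, were also found in 0 of those 4. Among the listed genes without a value, CACGTG was found in 1 of the Sms windows and TATAAA in that of Oaz1. A match or its absence describes these letters in this window only.

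The genes around the pathway were grouped in 6 lists with 53 symbols, of which 47 were measured. At least 1.5-fold higher with IL-3 were 3 of the 47, and 1 was at least 1.5-fold lower, against 3.52% and 2.71% of all genes. In all, 32 were above 0 and 15 below, and 59.8% of all genes were above 0, a share to be read beside the counts above 0 of each list that follows. After quantile normalization 2 were at least 1.5-fold higher, against 2.41% of all genes, as Slc7a1 fell to 0.57. With averaged probe sets 2 were higher, against 3.43%, as Eif5a fell to 0.49. With the loess trend subtracted, 1 was higher and 2 were lower by 1.5-fold, against 1.69% and 3.81% of all genes. On the deposited scale the genes past 1.5-fold were Mtap, Eif5a, Slc7a1 and Slc25a2, each in the top bin by mean value. In that bin 12.8% of genes were at least 1.5-fold higher and 6.68% at least 1.5-fold lower.

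A further list held the methionine cycle and salvage. Each propylamine transfer by spermidine or spermine synthase releases methylthioadenosine, which Mtap, the methylthioadenosine phosphorylase, opens for methionine salvage. Mtap had a value of 1.38 with IL-3 and 0.34 without, and was 2.07-fold higher (difference 1.05; 0.78 with the loess trend subtracted). On the deposited scale this was the single gene of the 47 past 2-fold. Mtap was at 0.97 after quantile normalization. The mitochondrial ornithine carrier gene Slc25a2 was farther from 0 than Mtap under quantile normalization (-0.999) and with the loess trend subtracted (-1.01). Further salvage genes were Enoph1 at 0.56, Mri1 at 0.38 and Apip at 0.31, whereas the dioxygenase gene Adi1 was at -0.40. With the loess trend subtracted Adi1 was at -0.69. Of the 11 of 13 methionine cycle and salvage genes measured, 7 were above 0, 1 passed 1.5-fold and the median difference was 0.09.

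Spermidine also supplies the aminobutyl group of hypusine, a modified lysine of the translation factor eIF5A that Dhps and Dohh make. All 4 genes of this list were above 0, as were 59.8% of all genes, and their median difference was 0.39. Eif5a had a value of 1.62 with IL-3 and 0.74 without, and was 1.84-fold higher (difference 0.88; 0.44 with the loess trend subtracted). Like Odc1, Eif5a had a second probe set with a small difference, 0.09 (0.62 with IL-3 and 0.52 without). The gap of 0.78 was reached or passed by 10 of the 998 genes with several probe sets. Dohh, the hydroxylase gene, was at 0.49, Dhps at 0.30 and Eif5a2 at 0.21.

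In the list for ornithine supply 9 of 10 genes were measured, with a median difference of 0.00. The arginine transporter gene Slc7a1 had 1.17 with IL-3 and 0.49 without, 1.61-fold higher (difference 0.68; 0.44 with the loess trend subtracted). Slc25a2 went the other way, with 0.05 with IL-3 and 0.96 without, 1.89-fold lower (difference -0.92; -1.01 with the loess trend subtracted). Oat, the ornithine aminotransferase gene, was at 0.52. The arginase genes Arg1 and Arg2 were at 0.00 and -0.04.

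Among 7 of 9 genes of polyamine transport, 6 were above 0 and none (0) passed 1.5-fold. Atp13a3, a P5B-type ATPase of polyamine uptake, had the greatest difference at 0.22, with 0.44 in its second probe set, and Atp13a4 the smallest at -0.05. Among 6 of 7 further polyamine enzymes and regulators, the antizyme inhibitor gene Azin2 was lowest at -0.36 and the agmatinase gene Agmat highest at 0.16. In the MYC network, with 10 of 10 genes measured, none (0) passed 1.5-fold. Mycn was at 0.46 and Myc, with 1.08 with IL-3 and 0.69 without, at 0.39. The MAX partners that oppose MYC lay on both sides of 0, with Mxd4 at -0.48, Mxi1 at -0.38, Mnt at -0.17, Mxd1 at -0.10 and Mxd3 at 0.29. Myc was at 0.11 with the loess trend subtracted.

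**Figure D3:**
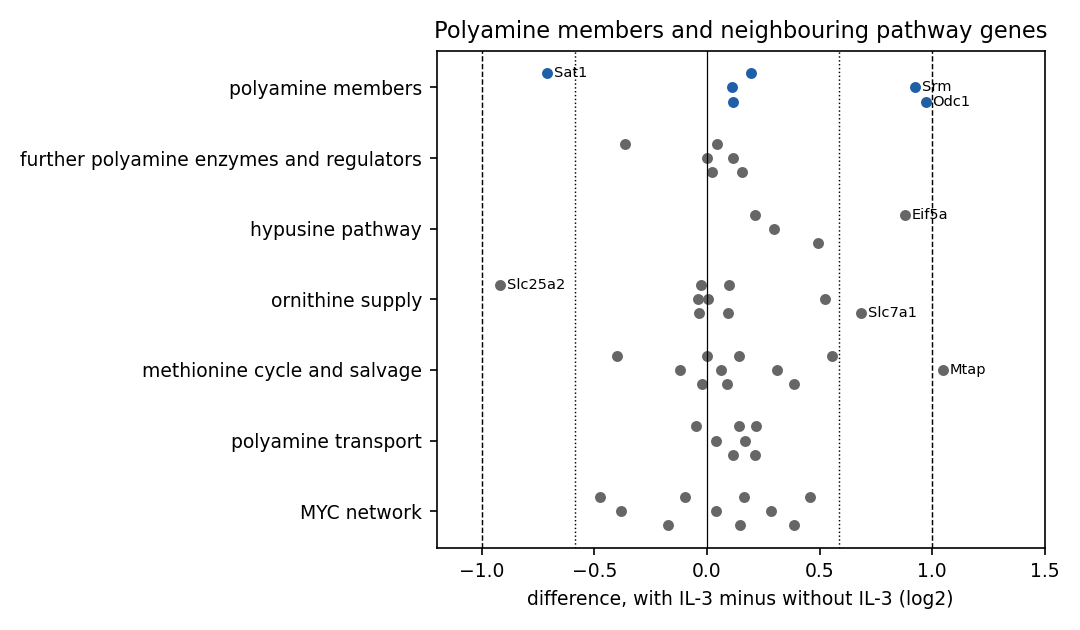
Difference with IL-3 minus without IL-3 (x axis, log2) of each measured gene, 1 point a gene, for the 6 polyamine members (top) and the 6 lists of neighbouring genes; vertical offsets within a list only separate points, and dotted and dashed lines mark 1.5-fold and 2-fold. Labelled genes are past 1.5-fold: Mtap, Eif5a and Slc7a1 on the right and Slc25a2 on the left, beside Odc1, Srm and Sat1, and with a loess trend subtracted the unlabelled Azin1 lies at -0.06.

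Markers of cell identity were set beside these genes. Of 18 markers, 6 were lower with IL-3 by 1.5-fold or more and 0 were higher by that fold, against 2.71% and 3.52% of all genes. They were the mast cell and basophil genes Fcer1a (-2.46), Cpa3 (-1.11) and Ms4a2 (-0.92), the myeloid genes Itgam (-1.08) and Adgre1 (-0.79), and the pan-leukocyte gene Ptprc (-0.73). Hdc, Csf1r, Lyz2, Mpo and Elane were between -0.11 and 0.24, and the pro-B and receptor genes other than Ptprc between -0.43 and 0.12. If the values are relative to a baseline, as read here, they carry no level, and whether a marker is absent cannot be read. The part of these markers in the polyamine differences was not tested.

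**Figure D4:**
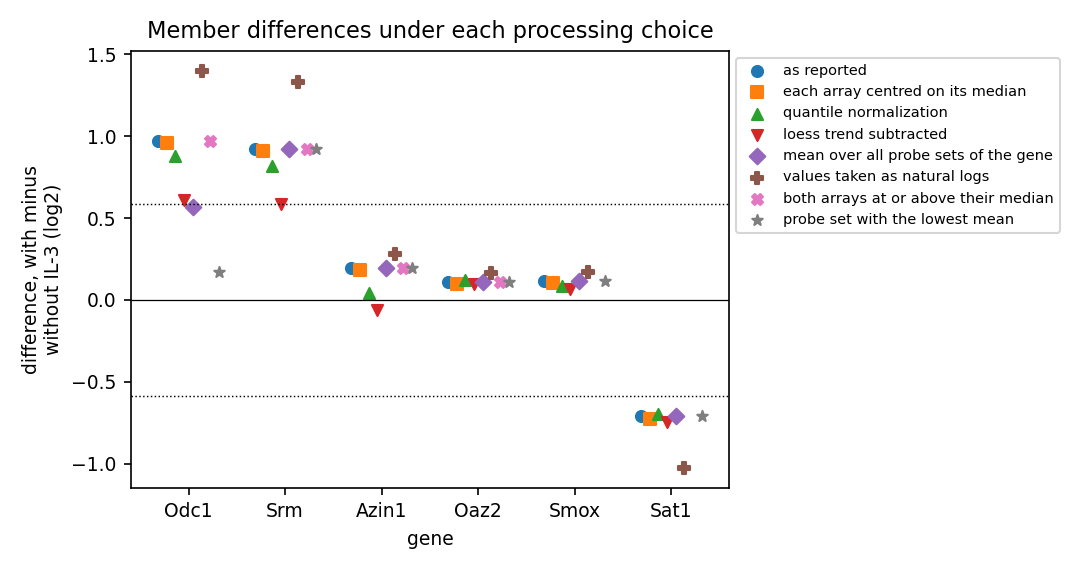
Difference with IL-3 minus without IL-3 (y axis, log2) of the 6 measured polyamine genes (x axis) under each processing choice (marker shapes), with 1.5-fold as dotted lines. Sat1 stays below the lower line under each choice that keeps it, but it has 1 probe set, so the choice of probe set cannot move it. Odc1 ranges from 0.17 to 1.40 with the probe set and log base, while Azin1 falls to -0.06 with the loess trend subtracted.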

How the data were processed

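RNA of 2 samples was hybridised to mouse Gene 1.0 ST arrays, 1 array per group. The authors deposited 1 log value, taken here as log2, per array for 28815 probe sets. Many values are negative and the array medians are near 0 (-0.03 with IL-3, -0.05 without). They were therefore read as relative to a per-probe-set baseline, which was not tested. The summarisation, normalization, log base and baseline arrays have no entry in the sources used here. If they are natural logs, the folds printed are too small. Of the probe sets, 21780 had 1 gene symbol in the platform annotation, 1605 had several and 5430 none. Symbols were updated through gene identifiers with the RefSeq table of GRCm38.p6.

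Differences were computed with Python 3.11.15, pandas 2.3.3 and statsmodels 0.14.6 (loess span 0.3), with no filter; the steps were tested on simulated data. With 1 array per group the number of arrays limits the precision, and genes were counted past 1.5-fold and 2-fold. All 10 members were named, and of the other lists each gene past 1.5-fold and the farthest from 0 in each direction. Members and lists were chosen with earlier results of these data known. Alternatives were median centring, quantile normalization, loess, averaged probe sets, natural logs and a filter at each array's median.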

Additional observations from a re-analysis of the deposited data

How the results depend on the processing

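Of the 6 members, Odc1, Srm, Oaz2 and Smox stayed above 0 and Sat1 below 0 under each alternative that kept them. Natural logs and the filter cannot turn the sign of any gene. For the 5 measured members with 1 probe set, only median centring, quantile normalization and the loess trend could have done so. Azin1 moved from 0.20 to 0.044 after quantile normalization and to -0.063 with the loess trend subtracted. The loess trend brought Odc1 to 0.61 and Srm to 0.58, the count of members at least 1.5-fold higher to 1, and the other genes of the pathway past 1.5-fold to 1 higher and 2 lower. Averaging the probe sets brought Odc1 to 0.57 and the count of higher members to 1, against 3.43% of all genes. Taking the probe set with the lowest mean, an alternative chosen after seeing the data, brought Odc1 to 0.17 and that count to 1, also against 3.43%. If the values are natural logs, Odc1 was at 1.40, Srm at 1.33 and Sat1 at -1.03, with 2 members at least 2-fold higher and 1 at least 2-fold lower, and 7 other pathway genes at least 1.5-fold higher and 2 lower. The shares of all genes were then also larger, with 2.1% higher and 1.88% lower at 2-fold, and 7.4% and 5.42% at 1.5-fold. The filter at each array's median kept 4 members, without Sat1 and Smox, so that 0 were at least 1.5-fold lower and the median became 0.56. Over the 8376 genes it kept, 7.4% were at least 1.5-fold higher and 3.33% lower, and the median difference was 0.04. If the values are relative to a baseline, as read here, this filter does not select by expression level. Median centring left each member within the probe set SD of its value. No paired analysis was possible because each group has 1 array.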
